A study of Homo sapiens with 18 samples.

Results

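Ribosome footprints were set against mRNA, gene by gene, in NCI-H1975 cells that carry the treatment label Scramble. The members are the 3 Scramble footprint libraries and the 3 Scramble mRNA libraries, 6 of the 18 libraries of the series, taken by their labels. NCI-H1975 is an established human lung adenocarcinoma line. For footprints the cells were harvested in 100 micrograms per ml cycloheximide, a drug that halts elongating ribosomes, and the lysate was digested with nuclease and depleted of rRNA. For mRNA, RNA was enriched with oligo(dT) beads, fragmented and copied with random primers. The label gives no sequence, dose or time for Scramble, and nothing says whether libraries 1 to 3 are separate cultures, so p-values measure the spread between these libraries, which may be technical. The same comparison in cells labelled sgControl (CRISPR Control), also 3 footprint and 3 mRNA libraries, serves as a reference; the third condition is a knockout of DAMP, the peptide of DSP-AS1, and is not used here. The series' own question for the Scramble libraries was which noncoding RNAs are occupied by ribosomes, and the coding genes beside them show how ribosomes were spread over the mRNAs of the line.

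A ribosome on an mRNA shields a short stretch from nuclease, and the count of such footprints on a gene depends on how much of its mRNA there is and on how many ribosomes each mRNA carries. Dividing footprints by mRNA leaves a ratio often called translational efficiency, which also holds any difference in how well the 2 protocols capture and count that gene. Known control of this ratio includes a pyrimidine run at the start of mRNAs for the translation apparatus, an iron-responsive element in ferritin mRNAs, and short upstream reading frames in mRNAs for stress factors.

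The depth was 10859527 to 12424884 gene counts in the mRNA libraries and 1035159 to 1302852 in the footprint libraries. Most footprint reads counted to genes fell on the 2 mitochondrial rRNAs, with 31.7% to 35.5% on MT-RNR1 and 20.2% to 36.2% on MT-RNR2. Coding genes kept 242907, 205769 and 87269 footprint reads in libraries 1, 2 and 3, which is 20.5%, 19.9% and 6.7% of the gene counts. Footprint library 3 thus stands apart in its coding share, and results that hang on it are marked. All levels below are CPM of coding reads, that is counts-per-million over the protein-coding genes of a library. They are not divided by transcript length, so they compare a gene between libraries and not one gene with another. Footprint libraries correlated with each other at 0.795 to 0.869 over log2 values of coding genes with any count in the Scramble libraries, and mRNA libraries at 0.994 to 0.996.

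The mRNA libraries carry a mark of their own. In Scramble mRNA 42.5% to 43.2% of reads lay in no gene, against 1.15% to 1.43% in sgControl mRNA, and in Scramble footprints 45.2% to 48.2% of reads had more than 1 position, against 2.16% to 2.2% in Scramble mRNA. Multiply placed reads were tallied in a closing line of their own. No source used here gives the strand setting with which genes were counted, nor whether multiply placed reads were also counted to genes. Their part in the ratios was not tested; some values that move with them are given beside results.

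The line expressed its epithelial markers unevenly. In such bulk libraries fewer cells of a type and less RNA per cell cannot be told apart. KRT8, KRT18 and KRT7, keratins of simple epithelia, stood at mean mRNA levels of 4040, 2310 and 2020 CPM, and EGFR and CDH1 at 191 and 124 CPM. EPCAM, KRT19, NKX2-1, NAPSA and SFTPB, other markers of lung adenocarcinoma, were at 0 to 0.871 CPM in mRNA. Of 10 leukocyte markers 6 had no mRNA count and 8 no footprint, PTPRC, CD3D, CD3E and NKG7 being among those at 0 in both; of 10 markers of fibroblasts and endothelium 3 had no mRNA count and 4 no footprint. The summed leukocyte markers reached 1.21 to 2.07 CPM in mRNA and 61.8 to 103 CPM in footprints, most of it CD14, with 38 footprints in all. The stromal markers summed to 1.55 to 1.77 CPM in mRNA and 37.1 to 103 CPM in footprints.

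Of 11699 coding genes tested, 1875 (16.0%) had more footprints than their mRNA and 3554 (30.4%) had fewer, 46.4% in either direction, at an adjusted p under 0.05 in edgeR's quasi-likelihood test. The middle of the distribution sat below zero: the median log2 ratio was -0.58, the central 50% of genes ran from -1.69 to 0.44, and the 5th and 95th percentiles were -8.05 and 2.11. Libraries did not overlap between the assays for 15.7% of the genes on the high side and 44.7% on the low side. The zero point of the ratio is set by the scaling. Upper-quartile scaling moved the median by 0.43 and turned the split to 2508 higher and 2139 lower, so that 54.0% of the calls were higher against 34.5%, while 1756 higher and 2139 lower calls stood under all 6 scalings. Group results are therefore given as medians less that of all coding genes. Leaving out 1 library at a time gave 2029 to 3048 lower calls; without mRNA library 1, 2 or 3 or footprint library 1 the number was 2029, 2107, 2132 and 2167. The fits without an mRNA library tested 5399 to 5429 coding genes, against 11699. Of the tested genes 994 had no footprint in any library, of which 526 were called lower, and 14 had no mRNA count. The fitted ratio of a gene with no footprint is no bound, so the 5th percentile describes the fit and not measured ratios. NDUFA13, with 137 mRNA reads and no footprint, was fitted at -7.55. With a floor of 3 counts over the footprint group it lay at 0.51.

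**Figure D1:**
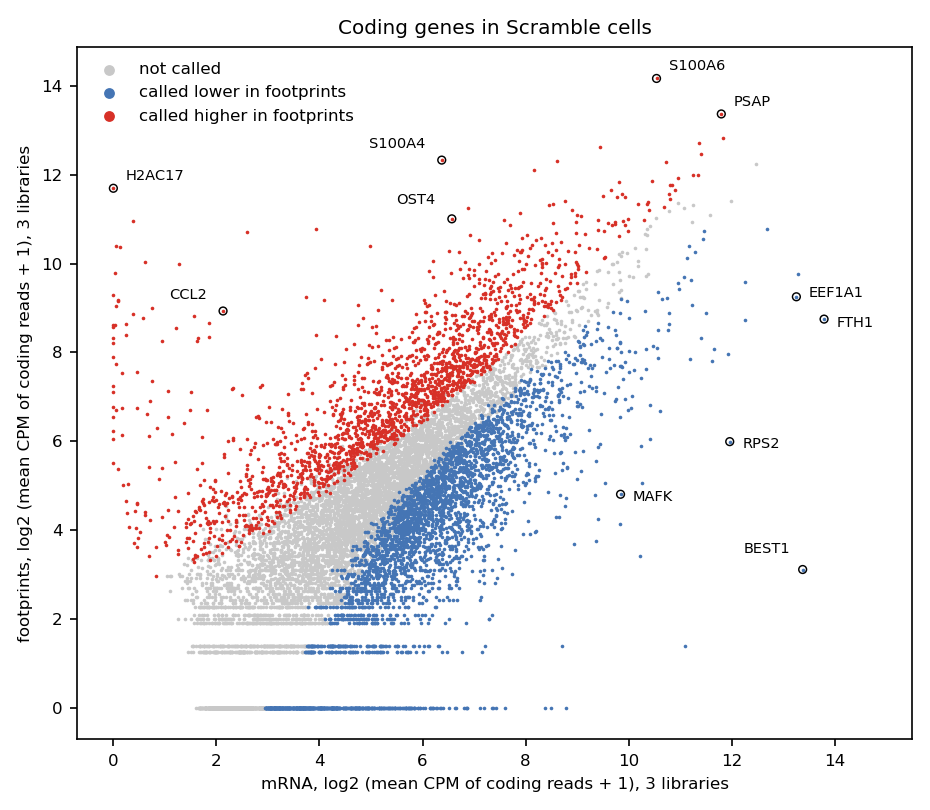
Each point is 1 tested coding gene, with its mean mRNA level over 3 libraries on the horizontal axis and its mean footprint level over 3 libraries on the vertical axis, both as log2 of CPM of coding reads plus 1. Red points were called higher in footprints (1875 genes), blue points lower (3554 genes); S100A6, S100A4 and H2AC17 lie far above the cloud, and FTH1, RPS2 and BEST1 far below it.

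The translation apparatus was split within itself. Of 81 cytosolic ribosomal protein genes tested, the building blocks of the ribosome, 19 had more footprints than mRNA, 42 fewer, and 20 were not called, and their log2 ratios ran from -5.97 (RPS2) to 3.87 (RPL26), with a median of -0.79. These mRNAs belong to the TOP class, named for a start with C and a run of pyrimidines through which growth signals set their translation. RefSeq's promoter table (GRCh38.p14) held 65 of the 81 genes, and 43 began exactly at the annotated start with C followed by 4 bases that are each C or T, against 4.04% of all 27305 entries in the table. Each window below holds the 10 bases before the start and the 15 bases from the start on. They were chosen after the values were seen, as the 4 lowest and 4 highest ratios among ribosomal protein and elongation factor genes with this start and an average log2 CPM of at least 6. They are shown because genes with the same kind of start lie at opposite ends of the ratio. Capitals mark the pyrimidine run from the start.
RPS3A (chr4:151099618-151099642, plus strand): cccacttccgCCCTTTTggctctct
RPL21 (chr13:27251548-27251572, plus strand): ccgcctctttCCTTTCggccggaac
EEF1A1 (chr6:73521018-73521042, minus strand): cgtgaacgttCTTTTTCgcaacggg
RPLP1 (chr15:69452808-69452832, plus strand): ggcgcgagagCCCCTTTCCTCagct
RPL31 (chr2:101002279-101002303, plus strand): ccttcgcgctCTTCCTTTCCaactt
RPL35A (chr3:197950180-197950204, plus strand): gggcctcgtcCTTCTCTTaccgcca
RPL22L1 (chr3:170870181-170870205, minus strand): ccgtagcttcCTCTCTgctctcgcg
FAU (chr11:65122120-65122144, minus strand): tcgcttcttcCTCTTTCTCgactcc

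RPS3A, a small-subunit protein, had 37.1, 48.6 and 11.5 CPM in the footprint libraries against 1130, 1375 and 1166 CPM in mRNA, a log2 ratio of -4.96 ± 0.35 (SE). RPLP1, a protein of the stalk that recruits elongation factors, had 268, 238 and 241 CPM against 3776, 3941 and 3953 CPM, and its ratio was -3.88 ± 0.29. EEF1A1, the factor that brings aminoacyl-tRNA to the ribosome, had 716, 559 and 550 CPM against 9491, 10241 and 9614 CPM, at -3.92 ± 0.31 (adjusted p = 3.53e-11, edgeR). In each of these the 3 footprint libraries lay below all 3 mRNA libraries. At the other end FAU, the precursor of RPS30, had 502, 510 and 241 CPM in footprints against 122, 124 and 133 CPM in mRNA, at 1.91 ± 0.21, and RPL35A, a large-subunit protein, stood at 1.36 ± 0.23. Both sets start in the way the sequences above show.

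Over all coding genes with a promoter entry the calls were spread much alike with and without the start: 15.1% of the 537 genes with it were called higher and 35.0% lower, against 16.0% and 30.3% of the 9096 without it, and the medians were -0.58 and -0.57. Within the ribosomal proteins, those with the start had a median of -0.49 (12 higher and 19 lower of 43) and those without it -1.63 (3 higher and 15 lower of 22). The number of named pseudogenes moves with the ratio as well. RefSeq names at least 10 pseudogenes after 137 of the tested coding genes, of which 62.8% were called lower with a median of -1.27, against 29.2% and -0.58 among 9734 genes with none. Genes with many copies mostly have many reads. Among genes with an average log2 CPM of at least 6, 68.4% of 114 with at least 10 copies were called lower, with a median of -1.52. Of 2506 such genes with none it was 44.5%, with a median of -0.49. Of the ribosomal protein genes 56 have at least 10 and are part of these 137, with a median of -1.42, and 25 have fewer, with a median of -0.1. Across the 81 genes the correlation of pseudogene number and log2 ratio was -0.278 (Pearson) and -0.294 (Spearman); the genes share the same libraries, so these are descriptions. RPL26 and RPL31, singled out after their values were seen, have 36 and 64 such copies, and both were called higher. Other genes with low ratios described below have such copies too: EEF1A1 has 50, GAPDH 65, FTH1 27 and FTL 20. The part of these copies in the ratios was not tested.

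**Figure D2:**
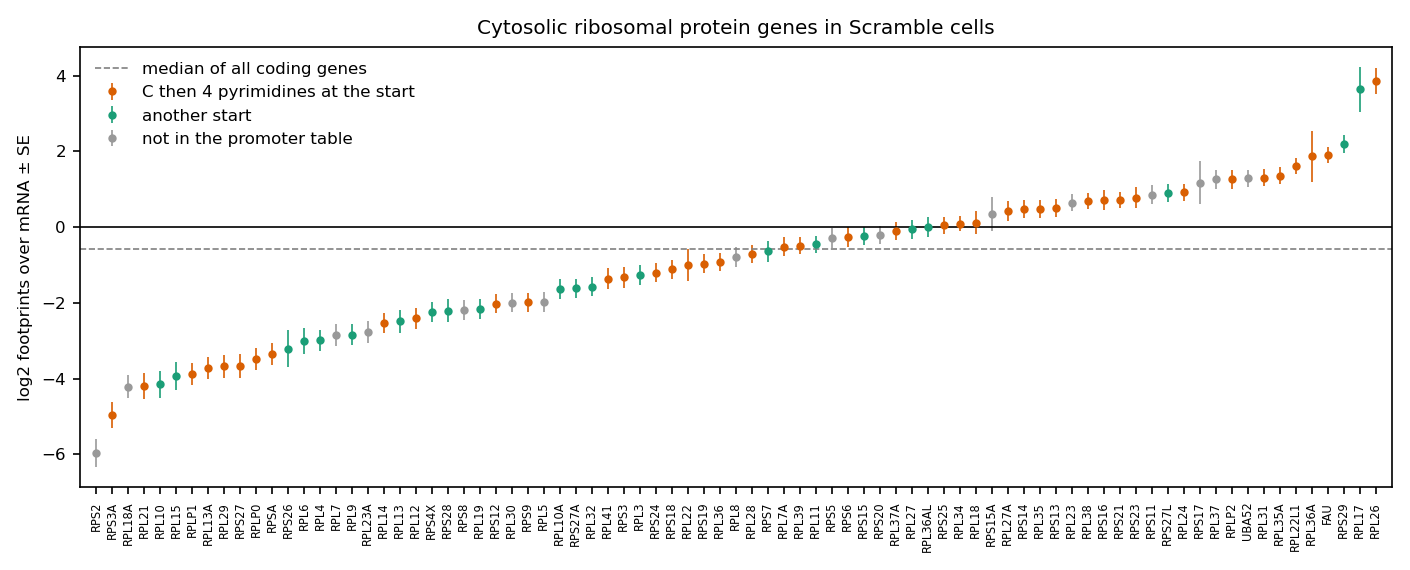
Log2 ratio of footprints over mRNA with its standard error for each of 81 ribosomal protein genes, ordered by ratio; orange points start with C and 4 pyrimidines, green points do not, and grey points have no entry in the promoter table. The dashed line is the median of all coding genes, -0.58, and orange points stand along the whole range from RPS3A to RPL26.

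In reads, large-subunit proteins took 2.25% to 2.68% of coding footprints and 5.05% to 5.41% of coding mRNA reads, and small-subunit proteins 2.21% to 2.35% against 3.26% to 3.6%. In the fit the median of the large-subunit genes lay 0.33 below that of all coding genes and that of the small-subunit genes 0.11 above it. Footprint libraries 1, 2 and 3, each set against the mean mRNA, gave -0.19, -0.5 and -0.84 for the large subunit (SD 0.33). For the small subunit they gave -0.08, -0.09 and -0.61 (SD 0.3), on the other side from the fit. SDs beside other list medians are likewise over the 3 footprint libraries, whose values need not centre on the fitted median. Without mRNA library 1, 2 or 3 the large-subunit value was -0.69, -0.58 and -0.64 and the small-subunit value -0.5, -0.42 and -0.43. Without footprint library 1, 2 or 3 they were -0.28, -0.21 and -0.08 for the large and -0.16, 0.07 and 0.24 for the small subunit, and with no filter the large-subunit value was 0.08. Among genes with at least 10 counts in every library, where fewer genes were tested, the values were -1.3 and -1.05. Genes for elongation and termination factors went down without exception among those called: 8 of 16 tested were lower, 6 of them under all 6 scalings, and none higher. Their share of reads was 0.293% to 0.328% in footprints against 1.47% to 1.55% in mRNA. EEF1D and EEF1B2, exchange factors for EEF1A1, stood at -3.75 and -2.21. Of 46 initiation factor genes tested, 27 were lower, 17 of them under all 6 scalings, and 7 higher. EIF4B, which assists the helicase of the cap complex, had 4, 2 and 1 footprint reads against 679, 664 and 648 CPM in mRNA, at -5.57 ± 0.38, and EIF4H, a relative in the same task, stood at -3.35. EIF4EBP1, the repressor that holds the cap-binding protein, was at -2.9 and EIF5, which acts in start-site choice, at -2.09. Cytosolic tRNA synthetases had 8 lower and 2 higher of 20 tested, led by CARS1 at -1.92 and MARS1 at -1.38. The median of this list lay 0.09 above that of all coding genes and had no settled side. Without mRNA library 1, 2 or 3 the value was -0.13, -0.07 and -0.13. Without footprint library 1, 2 or 3 it was 0.17, 0.22 and 0.23. With at least 10 counts in every library it was -1.32.

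Ferritin mRNAs were among the 6 with most mRNA reads and lay far below in footprints. FTH1, the heavy chain of the iron store, had 193, 292 and 802 CPM in footprints against 13351, 14361 and 14880 CPM in mRNA, at -5.12 ± 0.4 (adjusted p = 3.77e-11, edgeR). Footprint library 3 was highest and still far below every mRNA library. FTL, the light chain, had 655, 705 and 1249 CPM against 9707, 10341 and 9809 CPM, at -3.5 ± 0.31. As background, both mRNAs carry the element that iron regulatory proteins bind to hold back translation; its part here, and that of the 27 and 20 named pseudogenes of FTH1 and FTL, was not tested. TFRC, the transferrin receptor, went the other way with 1503, 928 and 1352 CPM in footprints against 240, 231 and 207 CPM in mRNA, at 2.55 ± 0.24, and SLC11A2, an iron importer, stood at 2.31. The iron genes together, 12 listed and 11 tested, had 2 higher and 5 lower calls and took 0.264% to 0.417% of footprints against 2.5% to 2.66% of mRNA reads. BEST1, a channel gene whose span overlaps FTH1, had 10124, 10851 and 10958 CPM in Scramble mRNA but 2 footprint reads in all, and 1.77 CPM in sgControl mRNA. FTH1 itself has a footprint-to-mRNA ratio that was higher in Scramble than in sgControl, by 4.09 on the log2 scale (adjusted p = 2.45e-05), with sgControl footprints at 5.03 CPM and mRNA at 3130 CPM.

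Stress and growth regulators lay low. Of 19 mRNAs known for upstream reading frames, 13 were lower, 8 of them under all 6 scalings, and 1 higher. ATF4, the transcription factor of the integrated stress response and the textbook case of such frames, had 32.9, 29.2 and 34.4 CPM in footprints against 729, 769 and 737 CPM in mRNA, at -4.46 ± 0.33 (adjusted p = 8.89e-12, edgeR). TRIB3 and PPP1R15A, its targets that feed back on the response, were at -3.48 and -3.02, while UCP2, a mitochondrial carrier, was higher at 2.65. The median of this list lay 0.51 below all coding genes in the fit, while footprint libraries 1, 2 and 3 gave -0.7, -1.22 and -0.99 (SD 0.26). Immediate-early transcription factors had 17 lower, 14 of them under all 6 scalings, and 0 higher calls among 21 tested of 24 listed. Their median lay 0.87 below all coding genes in the fit, while footprint libraries 1, 2 and 3 gave -1.4, -1.34 and -1.2 (SD 0.1). The fitted value was -1.49, -1.74 and -1.57 without mRNA library 1, 2 or 3. MAFK had 1, 4 and 5 footprint reads against 943, 841 and 969 CPM in mRNA (-5.5 ± 0.41), FOSL2 was at -2.96 and JUN, the AP-1 partner, at -2.07. Polyamine genes had 9 lower, 5 of them under all 6 scalings, and 1 higher of 10 tested. OAZ1, the antizyme whose synthesis needs a frameshift, was at -2.76, SMOX, an oxidase of spermine, at -2.67, and SAT1, the acetyltransferase, at -1.63.

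Chromatin and nuclear RNA genes had more lower than higher calls, some near the share of all coding genes. Chromatin remodellers and modifiers had 21 lower and 1 higher of 36 tested, with BRD2, a reader of acetylated histones, at -3.17 and the methyltransferase NSD1 and the acetyltransferase EP300 at -3.21 and -3.1, each on 5 to 11 footprint reads in all. The list's median lay 0.86 below that of all coding genes (SD 0.51), and was -0.44 without footprint library 1 and -0.51 without library 2. Under all 6 scalings 14 of its 21 lower calls stood. Zinc finger transcription factors had 14 lower (32.6%, against 30.4% of all coding genes), 10 of them under all 6 scalings, and 0 higher of 43 tested. hnRNP proteins, which package nuclear RNA, had 16 lower, 8 of them under all 6 scalings, and 1 higher of 27. They were led by PCBP1 at -4.38, on 7 footprint reads in all, and HNRNPA1, which has 75 named pseudogenes, at -3.15. The median was 0.15 below that of all coding genes. It turned to 0.24 above it with no filter on low counts and to 1.3 below it with at least 10 counts in every library. Lower calls were more frequent among genes with more reads: in the 4 equal groups of coding genes by average log2 CPM they made up 9.78%, 25.1%, 41.8% and 44.8%. Higher calls made up 13.4%, 10.9%, 12.9% and 26.9% of these groups. For lists of genes with many reads, the shares over all coding genes are thus a low reference in both directions. BCL2-family regulators of apoptosis had 12 lower and 4 higher of 21; BCL2L1, an inhibitor of death, had 90.6, 53.5 and 57.3 CPM in footprints against 433, 411 and 445 CPM in mRNA, and BBC3, a killer, had 3 footprint reads in all. That list's median of -1.49 rose to -0.68 when the 3 members with no footprint were placed at a floor of 3 counts over the group, against a coding median of -0.42 on the same floor. Of the readers, writers and erasers of m6A, 7 were lower (38.9%), 4 of them under all 6 scalings, and 2 higher of 18. The median of -0.16 from that of all coding genes turned to 0.25 with no filter and to 0.27 without footprint library 1. YTHDF1, the reader named in the series' title, had 259, 277 and 550 CPM against 97.7, 98.7 and 101 CPM, at 1.79 ± 0.2.

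Genes for respiration lay high as a group. The medians of complex I and of cytochrome c oxidase with its assembly factors lay 1.98 and 1.24 above that of all coding genes. Among genes with at least 10 counts in every library they lay 0.93 and 0.41 above that of the coding genes tested there. ATP synthase had 17 of its 18 genes higher and 0 lower, with a median 2.08 above all coding genes (SD 0.32), which was 0.65 among genes with at least 10 counts in every library. ATP5MC3, which encodes the proton-carrying ring, had 679, 782 and 493 CPM in footprints against 152, 168 and 162 CPM in mRNA, at 2.14 ± 0.21. ATP5PO, a stalk protein, was at 5.37 ± 0.41 on low mRNA of 2.07 to 3.05 CPM. Complex I, which takes electrons from NADH, had 26 higher and 1 lower of 36 tested (38 listed), and its genes took 1.01% to 1.2% of coding footprints against 0.256% to 0.275% of coding mRNA reads. NDUFB6 had 782, 578 and 665 CPM against 31.5, 36.8 and 38 CPM, at 4.34 ± 0.19; NDUFB1 was at 3.85 and NDUFA1 at 3.65. Cytochrome c oxidase and its assembly factors had 12 higher and 4 lower of 23. COX8A had 552, 651 and 527 CPM against 15.6, 16.8 and 15.3 CPM, at 5.28 ± 0.18, and COX7A2 was at 3.32 and COX6B1 at 2.91.

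The 13 proteins made inside mitochondria were mixed, with 6 higher and 3 lower. MT-ND5 had 4421, 4068 and 10473 CPM in footprints against 746, 690 and 662 CPM in mRNA, at 3.2 ± 0.32, and MT-ND6 was at 1.97. MT-ND2 went down, with 41.2, 58.3 and 286 CPM against 1102, 1014 and 1094 CPM, at -3.39 ± 0.38. MT-CO1, the core oxidase subunit, had 1803, 1939 and 10714 CPM against 5884, 5436 and 5674 CPM, so that the assays overlapped and the ratio of -0.26 ± 0.41 did not pass edgeR's test (adjusted p = 0.611). Without footprint library 3 the MT-CO1 ratio was -1.36 and passed it (adjusted p = 6.41e-10). Footprint library 3 was highest in each of these genes: the 13 took 1.49%, 1.59% and 4.7% of coding footprints and 1.73% to 1.88% of coding mRNA reads (exact permutation p = 1.0, two-sided). The list's median less that of all coding genes was -0.33, 0.8 and 1.09 in footprint libraries 1, 2 and 3, which gives it no settled side, and the pooled value of 0.64 was 1.12 without footprint library 1, 0.13 without library 3 and -0.39 among genes with at least 10 counts in every library.

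Lysosomal enzymes, the vacuolar ATPase and chaperones of the endoplasmic reticulum also had more higher than lower calls. Their medians lay 2.22, 1.16 and 1.69 above that of all coding genes. Among genes with at least 10 counts in every library they lay 0.92, 0.7 and 0.47 above that of the coding genes tested there. Lysosomal enzymes had 22 higher and 1 lower of 26, and took 2.56% to 3.18% of coding footprints against 0.953% to 1.1% of mRNA reads. CTSC, a peptidase that activates granule proteases, had 2133, 2255 and 1627 CPM against 197, 181 and 192 CPM, at 3.49 ± 0.26. LIPA, the acid lipase, was at 3.05, GLB1, the beta-galactosidase, at 2.97 and GLA, the alpha-galactosidase, at 2.76. PSAP, the precursor of the saposins that help such enzymes, took the second most coding footprints of any gene, 11292, 11440 and 8972 CPM against 3640, 3193 and 3853 CPM in mRNA. The proton pump that acidifies the lysosome, the vacuolar ATPase, had 8 higher and 2 lower of 16 tested, with ATP6AP1 at 1.87. Chaperones and oxidoreductases of the endoplasmic reticulum had 14 higher and 2 lower of 22; MANF, secreted under stress of that compartment, was at 2.68 and PDIA4, a disulfide isomerase, at 2.02. Cytosolic chaperones had 4 higher (14.8%) and 7 lower (25.9%) of 27, near the 16.0% and 30.4% of all coding genes. Their median lay 0.47 above that of all coding genes. The difference between the 2 chaperone lists was not tested.

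S100 and annexin genes, calcium-binding proteins, had 14 higher and 0 lower of 20 tested. Their median lay 1.93 above that of all coding genes. Among genes with at least 10 counts in every library it lay 0.2 above that of the coding genes tested there. The 14 include S100A13, with mRNA at 1.84, 1.46 and 0.69 CPM. It passed the filter on low counts through the footprints alone, so it could only be high. S100A6 took more coding footprints than any other gene, 18789, 19085 and 17303 CPM against 1418, 1482 and 1569 CPM in mRNA, at 3.7 ± 0.3 (adjusted p = 1.03e-10, edgeR). S100A4 had 5298, 4860 and 5271 CPM against 76.4, 85.8 and 83.5 CPM, at 6.04 ± 0.31. The list took 3.22% to 3.59% of coding footprints and 0.645% to 0.681% of coding mRNA reads, and every footprint library lay above every mRNA library (exact permutation p = 0.1, the smallest that 3 against 3 libraries allow). Among 44 lists other than cell markers, all footprint libraries lay above all mRNA libraries in 19 and below them in 19.

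**Figure D3:**
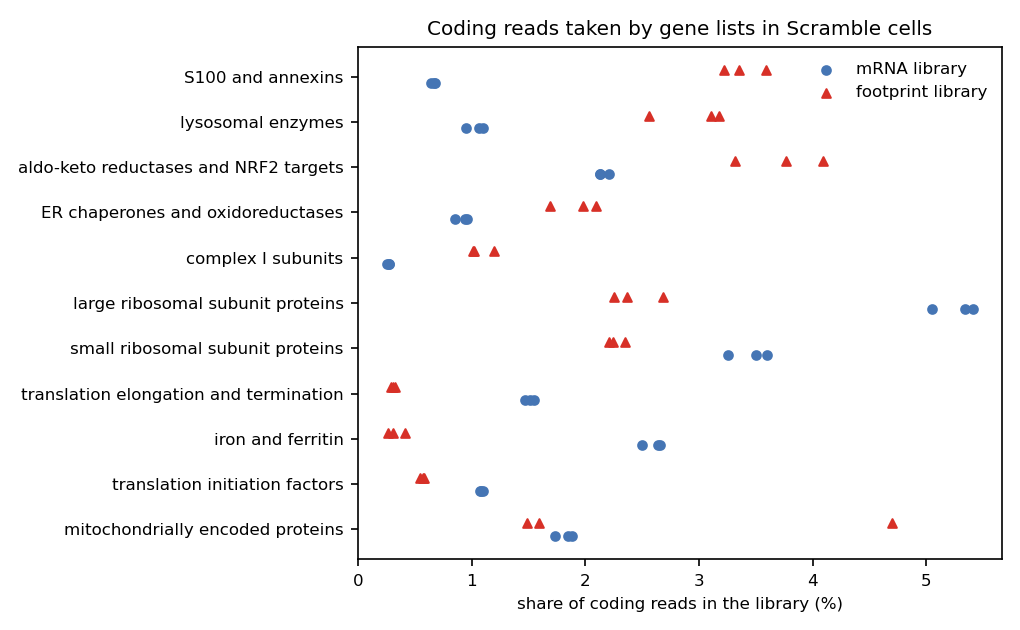
Share of coding reads taken by 11 gene lists in each library, in percent; blue circles are the 3 mRNA libraries and red triangles the 3 footprint libraries. S100 and annexin genes sit at 3.22% to 3.59% in footprints and 0.645% to 0.681% in mRNA, iron genes at 0.264% to 0.417% and 2.5% to 2.66%, and 1 footprint library alone has 4.7% of mitochondrially encoded genes.

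Chemokine and receptor genes included the coding gene with the highest ratio outside the histones among those with an average log2 CPM of at least 6. CCL2, which draws monocytes, had 552, 428 and 481 CPM in footprints against 4.23, 2.24 and 3.65 CPM in mRNA, at 7.27 ± 0.23 (adjusted p = 1.92e-19, edgeR). CXCL1, which draws neutrophils, had 2981, 2308 and 2429 CPM against 374, 355 and 385 CPM, at 2.87 ± 0.26, while CXCL5, a close relative, went down to -2.89 ± 0.29. The list had 9 higher and 4 lower of 22 tested. Its median less that of all coding genes was 0.93, and -0.22 among genes with at least 10 counts in every library. Integrins and receptors had 14 higher and 2 lower of 29, with ITGA2, a collagen receptor, at 2.02 and IFNGR1, a receptor for interferon gamma, at 1.95. The matrix list had 10 higher and 10 lower of 34 (29.4% each, against 16.0% higher and 30.4% lower of all coding genes). TIMP1, an inhibitor of metalloproteinases, was at 3.5 and LAMB1, a laminin chain, at 2.46, but the collagens COL7A1 and COL5A1 at -2.34 and -2.03. The receptor and matrix medians less that of all coding genes were 1.07 and 0.91. Among genes with at least 10 counts in every library they were -0.07 and -0.45.

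**Figure D4:**
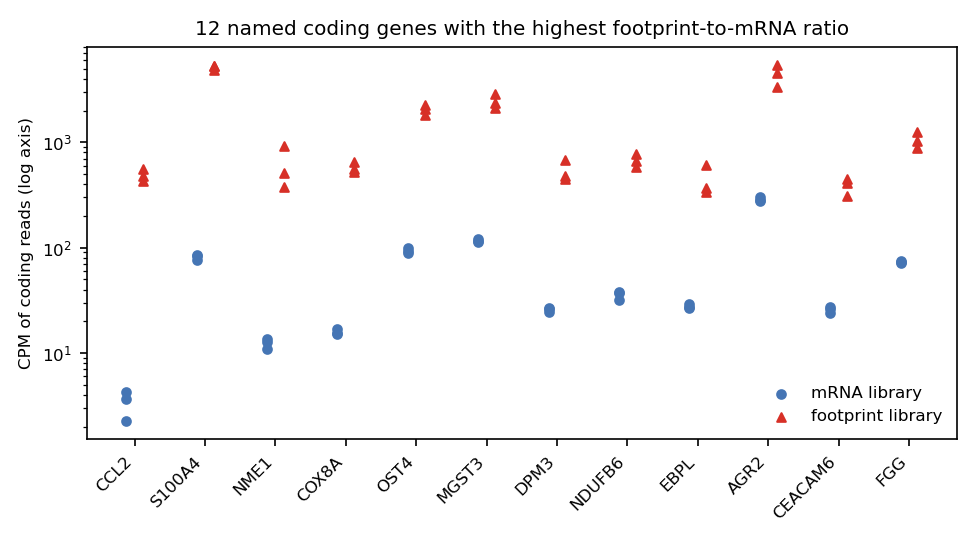
CPM of coding reads on a log axis for the 12 named coding genes with the highest ratio; blue circles are the 3 mRNA libraries and red triangles the 3 footprint libraries of each gene. Lack of overlap between the assays was a condition for choosing these genes, which run from CCL2 (ratio 7.27) to FGG (3.94).

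The other genes of the 12 highest had varied products. OST4, the smallest subunit of the oligosaccharyl transferase, had 2083, 1803 and 2280 CPM against 88.6, 100 and 93.3 CPM, at 4.51 ± 0.26. DPM3, which anchors the enzyme that makes the sugar donor dolichol-phosphate mannose, had 445, 481 and 676 CPM against 24.3, 25.9 and 26.9 CPM. MGST3, a glutathione transferase of membranes, was at 4.44, EBPL, a relative of a sterol isomerase, at 4.09, and AGR2, a disulfide isomerase of mucus-secreting cells, at 4.02. CEACAM6, an adhesion protein of adenocarcinomas, was at 3.97 and FGG, a chain of fibrinogen, at 3.94. NME1, a nucleoside diphosphate kinase, was at 5.8, but a read-through gene, NME1-NME2, shares its span, so reads may be divided. In all 12 the calls were the same under the 6 scalings. In 8 of the 12, mRNA was higher in every sgControl library than in the Scramble libraries: mean mRNA was 3.37 CPM in Scramble and 72.1 CPM in sgControl for CCL2, 81.9 and 1580 CPM for S100A4, and 12.3 and 112 CPM for NME1. The 4 exceptions are NDUFB6, AGR2, CEACAM6 and FGG, and over the 12 genes sgControl mRNA was 0.138 to 21.4 times the Scramble level. Its part in the ratios was not tested. Microproteins of mitochondria and the endoplasmic reticulum, as a list, had 10 higher and 7 lower of 27 tested, with TMEM258 at 3.54 and MTLN at 2.96. Genes of short span were called higher more often: with coding genes ordered by span and cut into 4 equal groups, 23.4% in the group up to 13.0 kb and then 16.2%, 13.7% and 10.7%, with lower calls between 28.3% and 32.0% in all 4.

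Cyclins, CDKs and mitotic kinases had 27 higher and 2 lower of 39 tested. Their median lay 2.39 above all coding genes in the fit, and 2.32, 2.05 and 2.2 above in footprint libraries 1, 2 and 3 (SD 0.14). The fitted value was 1.25 among genes with at least 10 counts in every library. CDK1, the kinase of mitotic entry, had 98.8, 107 and 80.2 CPM in footprints against 9.01, 10.6 and 8.87 CPM in mRNA, at 3.46 ± 0.31. AURKB, PTTG1 and CKS2, which act in chromosome segregation and with CDK1, were at 3.86, 3.79 and 3.16. Replication-dependent histones, whose mRNAs end in a stem-loop in place of a poly(A) tail, took 2.34% to 2.83% of coding footprints and 0.0226% to 0.024% of oligo(dT)-selected mRNA reads. Of 57 listed, 48 passed the filter on low counts and 46 were called higher; 11 of those that passed had no mRNA count, and others such as H4C4 passed through the footprints alone, so that these could only be high and the count is a description. H4C4 had 432, 559 and 584 CPM in footprints against 0, 0 and 0.0985 CPM in mRNA. H2AC17, named after its values were seen, had 1491 footprints and no mRNA count, at least 32400-fold higher with a floor of 3 counts over the mRNA group. Near-identical histone copies can share reads, so single copies are uncertain. Histones with poly(A) tails behaved otherwise, with 5 higher and 5 lower of 11, and H2AZ1, a variant of H2A, was at 2.06.

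Metabolic and protein-turnover genes leaned up. The medians of cholesterol synthesis, NRF2 targets and the proteasome lay 1.73, 1.18 and 1.19 above that of all coding genes. Among genes with at least 10 counts in every library they lay 1.04, 0.01 and 0.2 above that of the coding genes tested there. Cholesterol synthesis had 14 higher and 2 lower of 24: EBP, an isomerase, had 173, 97.2 and 126 CPM against 10, 8.53 and 10 CPM, at 3.92 ± 0.3, and MSMO1, FDFT1 and DHCR7 were at 2.82, 2.51 and 2.46. Aldo-keto reductases and other NRF2 targets, which detoxify carbonyls and quinones, had 13 higher and 5 lower of 25 and took 3.32% to 4.09% of coding footprints against 2.13% to 2.21% of mRNA reads. AKR1C2 and ALDH1A1, among the 6 genes with most footprints, were at 1.04 ± 0.26 and 1.43 ± 0.27, and NQO1 at 1.65. The proteasome had 17 higher and 3 lower of 31, with the core subunits PSMB1 and PSMB2 at 2.57 and 2.43 and the ATPase PSMC1 at -3.54. Glycolysis had 8 higher (42.1%) and 4 lower (21.1%) of 19, against 16.0% and 30.4% of all coding genes. Its median less that of all coding genes was 0.83, and -0.18 among genes with at least 10 counts in every library. PKM was at 1.14 ± 0.28. GAPDH was at -1.84 ± 0.27, with 2005, 1652 and 1570 CPM in footprints against 6415, 6327 and 6963 CPM in mRNA. Keratins and junction genes had 4 higher and 10 lower of 25, with CDH1, the adhesion protein of epithelia, at 1.02 and KRT7 at -1.42. DSP, a desmosome protein, was at 1.02 ± 0.22; DSP-AS1, the noncoding gene that overlaps it, had 1379, 1414 and 2590 CPM in footprints against 26.7, 21.5 and 27.8 CPM in mRNA.

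Other lists had called members on both sides. Of all coding genes, 16.0% were called higher and 30.4% lower. Mitochondrial import genes had 7 higher (25.9%) and 4 lower (14.8%) of 27 tested. TOMM5, a small part of the outer-membrane pore, had 107, 136 and 45.8 CPM in footprints against 0.919, 0.603 and 0.197 CPM in mRNA, at 7.55 ± 0.48. It passed the filter on low counts through the footprints alone, so it could only be high and its ratio is a description. TIMM10, a carrier between the membranes, was at 3.05. The tricarboxylic acid cycle had 9 higher (42.9%) and 5 lower (23.8%) of 21. SDHB and FH were at 2.06 and 1.71 and DLST, a transferase of the oxoglutarate complex, at -1.6. Selenoproteins had 4 higher and 4 lower of 20; GPX2, a glutathione peroxidase of epithelia, was at 2.74 ± 0.18 and GPX1, its widely expressed relative, at -3.08 ± 0.31. Both read a UGA codon as selenocysteine. Of 31 cytoskeletal genes, 15 were lower (48.4%), 9 of them under all 6 scalings, and 4 higher (12.9%). TUBA1C and TUBA1B, alpha-tubulins, were at -3.8 and -2.14, VIM, the filament protein of mesenchymal cells, had 144, 185 and 229 CPM against 1019, 965 and 1093 CPM, and MYL6, a myosin light chain, was at 2.76. Splicing genes had 11 higher (28.9%) and 8 lower (21.1%) of 38. SNRPD2, a core snRNP protein, was at 2.68 and SRSF6 at -3.07, the latter on 5 footprint reads in all. Of 18 ubiquitin-like genes 6 were higher (33.3%) and 5 lower (27.8%), and UBB, a polyubiquitin gene, was at -3.21. Solute carriers had 11 higher and 6 lower of 30, with SLC29A1, a nucleoside transporter, at 2.41. MHC class I and interferon genes had 7 higher and 5 lower of 28; B2M, the light chain of MHC class I, had 3960, 3402 and 3644 CPM against 902, 913 and 899 CPM, at 2.09 ± 0.26. CDK inhibitors and p53 targets had 10 lower (37.0%), 5 of them under all 6 scalings, and 3 higher (11.1%) of 27. SESN2, a stress-induced inhibitor of growth signalling, was at -3.64 on 4 footprint reads in all. PMAIP1, a killer of the BCL2 family, was at 1.03.

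**Figure D5:**
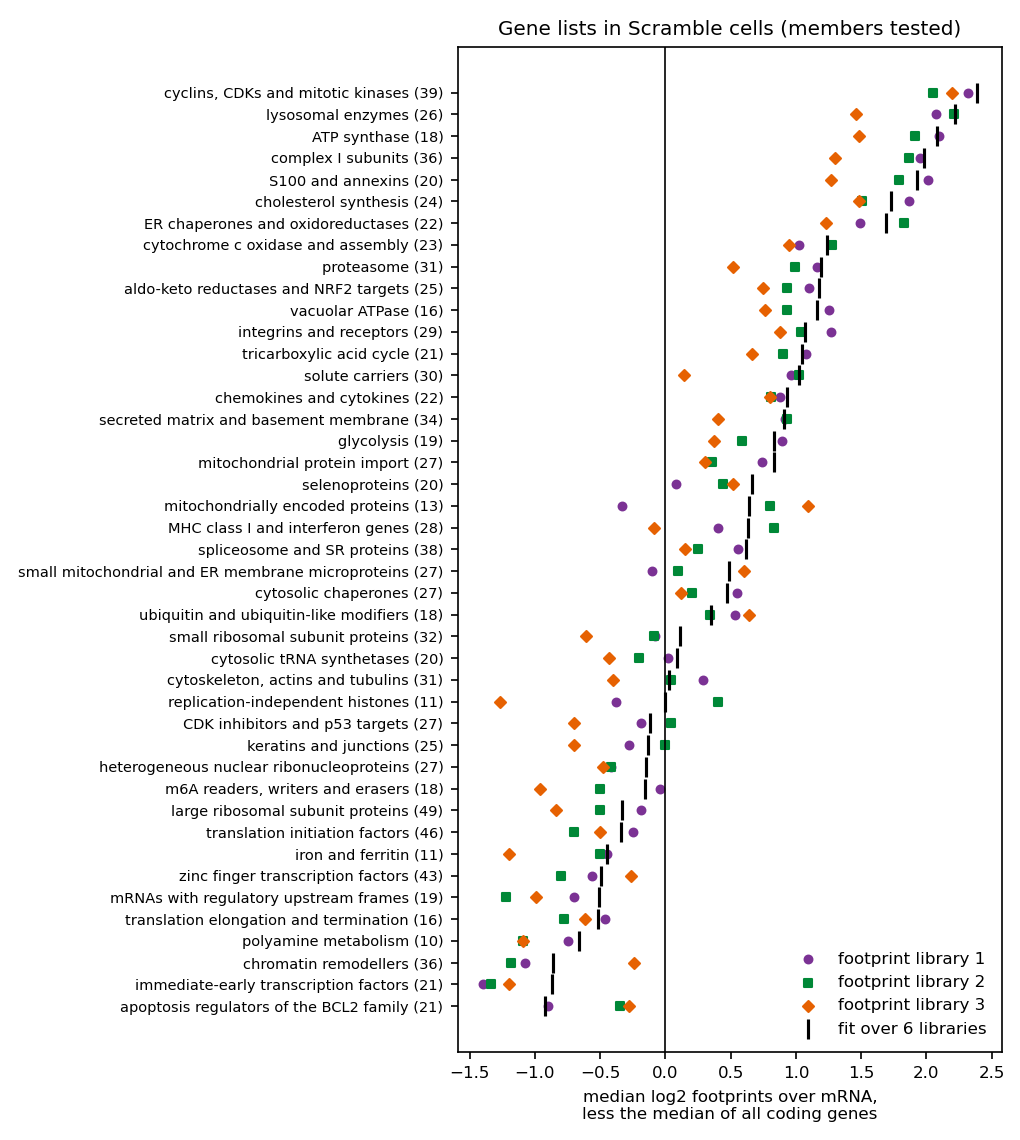
Median log2 ratio of footprints over mRNA for each gene list less the median of all coding genes; coloured symbols are the 3 footprint libraries, each set against the mean of the 3 mRNA libraries, and black bars the fit over all 6. Numbers in brackets are members tested; cyclins, lysosomal enzymes, ATP synthase and complex I lie about 2 above zero in the fit, and the lists of BCL2-family, immediate-early and chromatin genes lie at -0.92, -0.87 and -0.86.

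At the low end, the 12 genes with the lowest ratios had no footprint in any library. LRRC75A had 427, 473 and 420 CPM in mRNA, which puts footprints at least 73.7-fold lower with a floor of 3 counts over the group. SNX32, a sorting nexin, was at least 59.9-fold lower, GPS2, a subunit of a corepressor complex, at least 55-fold lower, and IER2, an immediate-early factor, at least 28.4-fold lower. The other members are ATP6V1C2, GDF9, JSRP1, GDPGP1, CCDC159, KCP, GATC and CXCR5, at bounds of 19-fold to 32.3-fold. In 10 of the 12, mean mRNA was under 5 CPM in sgControl cells, for example 0.176 CPM for SNX32 and 1.14 CPM for LRRC75A (the exceptions are IER2 at 62.7 CPM and GATC at 21.7 CPM), and 7 of the 12 have a span that overlaps another gene. GDF9 overlaps UQCRQ, GATC overlaps SRSF9, and the start of EIF5A lies near GPS2, with 198 bases between them. Of coding genes whose span overlaps a gene on the opposite strand, 34.6% were called lower and 11.5% higher, against 29.5% and 17.5% of those with no such gene within 5 kb. Among the 6249 coding genes that overlap no other gene, 1184 (18.9%) were higher and 1714 (27.4%) lower.

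Whether these ratios belong to the Scramble libraries was asked by testing the difference from sgControl cells, as the interaction of condition and assay. The 3 sgControl footprint libraries differed by about the sampling noise and were counted as 1 sample. Chi-square per degree of freedom was 0.928, against 2.77 in Scramble footprints, over coding genes with at least 30 summed counts. The genes with the highest values were left out of this mean, which lowers it. Of 13513 coding genes tested, 3144 (23.3%) had a higher ratio in Scramble and 3704 (27.4%) a lower one, 50.7% in either direction. The ratios of 3403 genes with an average log2 CPM of at least 6 correlated between the conditions at 0.212 (Pearson) and 0.127 (Spearman). Within a condition, footprints and mRNA of these genes correlated at 0.398 in Scramble and 0.0115 in sgControl. These correlations are across genes that share libraries and are given as descriptions. In sgControl, footprints thus barely followed mRNA, and every difference between the conditions given here rests on those libraries.

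By list, lysosomal enzymes had a higher ratio in Scramble for 20 of 26 genes and a lower one for 2, and S100 and annexin genes for 16 and 2 of 20. CTSC footprints were at 15.1 CPM in sgControl with mRNA at 112 CPM, and S100A6 footprints at 264 CPM with mRNA at 5880 CPM. MHC class I and interferon genes had 20 higher and 1 lower of 28. Cyclins and mitotic kinases had 6 higher and 15 lower of 39, while the median difference lay 0.09 above that of all coding genes: CDK1 footprints were at 705 CPM in sgControl with mRNA at 25.3 CPM, so that its ratio was also high there, and the difference of -1.55 ± 0.64 did not pass the test (adjusted p = 0.0642). ATF4 had 563 CPM of footprints and 488 CPM of mRNA in sgControl, and its ratio was lower in Scramble by a log2 difference of -4.79 ± 0.46. EEF1A1 had a low ratio in both, with 189 CPM of footprints and 4030 CPM of mRNA in sgControl, and a difference of 0.36 ± 0.42 (adjusted p = 0.662). Condition, read depth (5467074 to 6241574 coding footprints per sgControl library), the share of reads in no gene and the share on mitochondrial rRNA all differ between the conditions and cannot be told apart.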

How the data were processed

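Poly(A) mRNA and ribosome footprints of Scramble cells (3 libraries each) were compared, with 3 and 3 sgControl libraries as a reference. The deposited values are raw counts for 61487 genes per library; the submitters' processing notes name Trimmomatic 0.30, HISAT2 2.1.0, SAMtools 1.10, HTSeq 0.11.2, edgeR and GRCh38. The 5 closing lines on unassigned reads, 54.0% to 54.3% of Scramble mRNA and 95.7% to 95.8% of Scramble footprint reads, stayed out of library sizes. RefSeq (GRCh38.p14) matched 40544 genes, 19324 of them coding. Library sizes and TMM factors came from coding genes and were applied to every gene. Genes passing filterByExpr (minimum count 10) were tested with the quasi-likelihood test of edgeR 4.0.16 (R 4.3.3, two-sided, Benjamini-Hochberg over the 14476 genes tested). The script was tested on simulated data. Intervals and floors cover counting error only.

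Members, the 47 gene lists and tests were chosen with earlier results of these data known. Named genes are the 12 highest and 12 lowest called coding ratios (average log2 CPM of at least 6, no overlap of libraries, replication-dependent histones left out), the 6 genes with most coding footprints and with most mRNA reads, up to 4 called members of each list with the smallest p, DSP-AS1, DSP and YTHDF1, and 5 genes at each end of the interaction. Alternatives were other scalings, filters, tests, a replicate block and leaving out each library. A few genes that the rule names are not reported here.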

Additional observations from a re-analysis of the deposited data

Results flagged for a closer look

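Among coding genes with an average log2 CPM of at least 6 over the libraries of that fit, the 5 genes at each end of the difference between the conditions had a footprint-to-mRNA ratio that differed between Scramble and sgControl cells by the interaction test (edgeR, adjusted p between 1.98e-12 for MDM2 and 0.00415 for IER2); genes below that level could lie further out, as GDF9 did with a fitted log2 difference of -16.00. The fitted log2 differences were 19.45 for IFNL1, 16.85 for CCL5, 14.16 for FGG, 14.08 for OASL and 13.0 for SLPI on the high side, and -13.96 for GPS2, -10.81 for MDM2, -10.75 for DBF4, -10.63 for TGFBR1 and -10.46 for IER2 on the low side. Where a group has no footprint the fitted value is no bound. With a floor of 3 counts over such a group, the ratio was at least 33200-fold higher in Scramble for IFNL1, at least 5730-fold higher for CCL5 and at least 885-fold higher for FGG. It was at least 48.6-fold lower for GPS2 and at least 4.34-fold lower for IER2. From summed counts SLPI, a secreted protease inhibitor, was 8270-fold higher, and TGFBR1, a receptor kinase, and MDM2, the ligase that removes p53, were 1600-fold and 1740-fold lower. OASL and DBF4 rest on 1 footprint in the lower group: OASL was 19700-fold higher (exact 95% Poisson interval of that count 3530 to 777000) and DBF4 1680-fold lower (301 to 66300), counting error only.

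MDM2 alone had 169690 footprint reads in the 3 sgControl libraries, 9480 CPM of coding footprints, beside 549 mRNA reads. CCL5 and OASL, an interferon-induced gene, had 55482 and 58246 mRNA reads in sgControl and 0 and 1 footprints. The cause of these differences was not tested, and condition and library cannot be told apart.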

How the results depend on the processing

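The coding calls were 1875 higher and 3554 lower. They became 2508 and 2139 with upper-quartile scaling, 974 and 264 of 1604 genes with at least 10 counts in every library, 944 and 1736 when a log2 ratio beyond 1 was required, and 1384 and 2567 with a replicate block; library numbers did not pair the assays (correlations of deviations -0.0347, -0.155 and -0.167). Leaving out 1 library gave 1362 to 2103 higher and 2029 to 3048 lower, with 5399 to 5429 genes tested where an mRNA library was left out. In genes that overlap no other gene, chosen after seeing the data, 1184 were higher and 1714 lower. Of 45 lists with at least 5 genes tested, 30 lay above the coding median and 14 did so with at least 10 counts in every library, where fewer genes were tested; 23 changed side under some setting. The difference between the conditions gave 3144 higher and 3704 lower calls, and 877 and 370 with at least 10 counts in every library. Of 135 named genes, 124 kept their call in every setting that gave them a value (85 genes had one with at least 10 counts in every library), 10 lost it only where a log2 ratio beyond 1 was required, and MT-CO1 changed sign, at 0.13 with upper-quartile scaling and from -1.36 to 0.12 without 1 footprint library; the cause was not tested. Depth limits the footprints most: library 3 has 87269 coding reads, and 994 coding genes had no footprint in any library.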
